A study of Mus musculus with 15 samples.

Results

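The genes described here carry fatty acids into skeletal muscle and burn them: lipoprotein lipase (Lpl), the fatty acid transporter Cd36, the carnitine palmitoyltransferases Cpt1b and Cpt2, the acyl-CoA dehydrogenases Acadvl, Acadl, Acadm and Acads, the beta subunit of the trifunctional protein (Hadhb) and uncoupling protein 3 (Ucp3). They were chosen by name, with earlier results of these data known, so the shares set beside them below are a description. Every probe set whose only gene symbol in the platform annotation was one of the 10 names was taken, whatever its values were. This gave 16 probe sets of 9 genes, of 22626 probe sets tested. The only probe set annotated to Cpt1b was annotated to other genes too and was not counted. RNA was measured in the gastrocnemius, a calf muscle, of 15 male C57BL/6NHsd mice housed one to a cage, with 1 MOE430A array per mouse. The old CR mice (n = 5) were 25 months old and on a calorie-restricted diet, the old mice (n = 5) were 25 months old on the control diet, and the young mice (n = 5) were 5 months old on the control diet. The control diet gave 84 kcal per week, and the CR diet, enriched in protein, vitamins and minerals, differed from it by 26% in calories. By the paper's account both diets were life-long, and the control diet was itself below the average intake of freely fed mice. Age was compared on the control diet only, and diet at the older age only.

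Muscle draws fatty acids from circulating lipoproteins through lipoprotein lipase on the capillary wall and takes them up with the help of CD36. Long-chain fatty acids are activated to acyl-CoA, pass into the mitochondrion as carnitine esters, made by CPT1 on the outer membrane and opened again by CPT2 on the inner membrane, and are then shortened in repeated rounds of beta-oxidation. Each round starts with an acyl-CoA dehydrogenase, of which there is one each for very long, long, medium and short chains, and for long chains it is finished by the trifunctional protein, an assembly of HADHA and HADHB subunits. Uncoupling protein 3 is a carrier of the inner mitochondrial membrane found mainly in muscle, and its mRNA is known to rise with fasting.

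Acads was the member called higher in old CR than in old mice, Cd36 came nearest to a call between old and young mice, and Ucp3 varied several-fold among mice of one group. The sequence before the start site is shown for Acads, for Hadhb, whose partner Hadha was called where Hadhb was not, and for Ucp3. The sequences are those of RefSeq for build GRCm38.p6, they run from 5′ to 3′ on the strand of the gene, and they end at the base before the start site. Capitals mark AGGTCA, the half-site that nuclear receptors such as the PPARs bind in pairs, and GGGCGG, the GC box, on either strand.
Acads, chr5:115119347-115119596, minus strand: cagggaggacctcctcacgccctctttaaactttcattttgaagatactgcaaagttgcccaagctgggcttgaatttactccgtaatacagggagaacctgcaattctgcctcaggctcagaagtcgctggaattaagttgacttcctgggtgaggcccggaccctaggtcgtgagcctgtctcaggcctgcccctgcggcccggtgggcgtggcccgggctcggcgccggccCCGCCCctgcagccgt
Hadhb, chr5:30155003-30155252, plus strand: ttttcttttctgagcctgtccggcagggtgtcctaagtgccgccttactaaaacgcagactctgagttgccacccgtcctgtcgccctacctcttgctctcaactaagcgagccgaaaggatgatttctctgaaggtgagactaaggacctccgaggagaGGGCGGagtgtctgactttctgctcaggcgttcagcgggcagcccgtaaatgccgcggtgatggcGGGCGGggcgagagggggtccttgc
Ucp3, chr7:100472741-100472990, plus strand: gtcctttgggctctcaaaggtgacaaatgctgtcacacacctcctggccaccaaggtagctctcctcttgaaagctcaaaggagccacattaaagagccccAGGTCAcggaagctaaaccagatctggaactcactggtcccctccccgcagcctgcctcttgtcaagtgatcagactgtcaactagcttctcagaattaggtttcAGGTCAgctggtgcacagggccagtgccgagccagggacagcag

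The promoter table held 8 of the 10 genes, all but Lpl and Cpt1b. In the 250 bases before the start, AGGTCA was found on either strand in 4 of them (Cd36, Acadm, Acadvl and Ucp3), and 14% of the 32851 promoters in the table held it. Ucp3 had 2 of them, at 149 to 144 and at 44 to 39 bases before the start, and 1.36% of all promoters had 2 or more. GGGCGG was found in 5 of the 8 (Cd36, Cpt2, Acadl, Acads and Hadhb) and in 32.7% of all promoters. Hadhb and Hadha are read in opposite directions from start sites 273 bases apart, so the Hadhb sequence above lies wholly between them. These are matches of letters, and binding was not measured.

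The values are linear intensities, and a difference is one of mean log2 intensities, tested with limma and adjusted by Benjamini and Hochberg over all 22626 probe sets, with a call at an adjusted p under 0.05. The levels of different probe sets cannot be set against each other. The median intensity of an array lay at 213 to 230 in old CR, 201 to 224 in old and 209 to 244 in young mice. As markers of the labelled tissue, the 10 fast fiber genes summed to an intensity of 215360 or more on each array. The log2 ratio of 3' to 5' signal, averaged over the array controls for Gapdh and Actb and read here as a measure of how well the 5' end of the RNA is represented, was -0.42 to -0.21 (log2) in old CR, 0.05 to 0.27 in old and -0.28 to 0.06 in young mice. It thus moved with the groups, and young replicate 3, at 0.06, lay among the old mice. Both age and diet comparisons use the same 5 old mice.

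Old CR mice were compared with old mice to ask what the diet changed at the same age. Of the 16 probe sets 1 was called higher and none lower, and over all probe sets 2.7% were called higher and 4.87% in either direction. At an unadjusted p under 0.05 the same 1 of 16 passed, against 21.9% of all probe sets. The median difference of the 16 was 0.12 on the log2 scale, against 0.06 over all probe sets, and 12 of the 16 differences were above 0. Between old and young mice none of the 16 was called, against 0.265% of all probe sets, while 3 had an unadjusted p under 0.05, against 15.5%, and the median difference was 0.04 against -0.06. Between old CR and young mice again none was called, against 0.0884% of all probe sets, 5 had an unadjusted p under 0.05, against 12.1%, and the median was 0.18 against -0.01. The groups did not overlap for 1 of the 16 in each comparison, beside 8.89%, 3.61% and 3.57% of all probe sets for old CR against old, old against young and old CR against young.

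**Figure D1:**
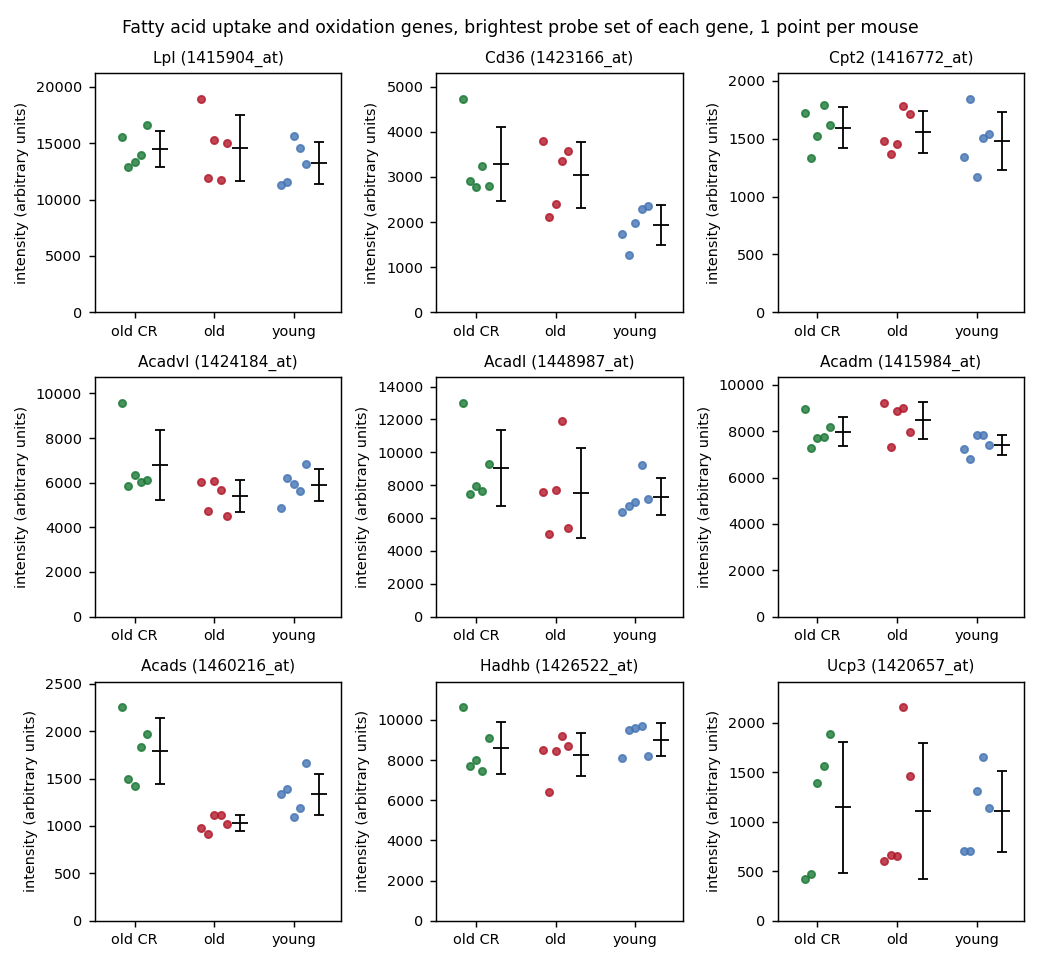
Linear intensity (vertical axis, from 0) of the brightest probe set of each of the 9 measured genes in each mouse, with old CR, old and young mice from left to right. Points are mice and bars show the mean and SD of 5 mice. The old CR mice stand above all old mice for Acads, with means of 1791 in old CR and 1030.0 in old mice, while most other genes overlap between groups.

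Acads, the short-chain acyl-CoA dehydrogenase, which opens the oxidation cycle for the shortest chains, had intensities of 2252, 1491, 1417, 1829 and 1969 in old CR mice, 983, 913, 1113, 1117 and 1023 in old mice and 1335, 1388, 1092, 1190.4 and 1664 in young mice (probe set 1460216_at). All 5 old CR mice lay above all 5 old mice, and the young mice overlapped with both groups. The means were 1791 ± 345 in old CR, 1030.0 ± 87.1 in old and 1334 ± 218 in young mice (SD, n = 5 each). Acads was 1.72-fold higher in old CR than in old mice, with a log2 difference of 0.78 (SE 0.15, adjusted p = 0.0158). Old mice were below young mice with a log2 difference of -0.36 (SE 0.15), which did not pass the test (adjusted p = 0.273). Against young mice the old CR mice differed by 0.42 (adjusted p = 0.283). With the 3' to 5' ratio in the model the diet difference was 0.49 (adjusted p = 0.837), a fit in which no probe set at all was called in this comparison and 1461 had an unadjusted p under 0.05. Without any 1 of the 15 mice the call stayed, with a highest adjusted p of 0.0403.

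The rest of the acyl-CoA dehydrogenases did not share the call. Acadm, which acts on medium chains, had 8978, 7288, 7713, 7761 and 8176 in old CR mice, 9219, 7330.4, 8857, 8997 and 7967 in old mice and 7217, 6823, 7835, 7822 and 7426 in young mice. Its spread was among the smallest measured: the SD within groups was 0.11 on the log2 scale, below that of all but 0.8% of probe sets. The group ranges overlapped, and the log2 difference was -0.084 for old CR against old (adjusted p = 0.69) and 0.19 for old against young (adjusted p = 0.421). Acadvl, which starts the oxidation of very long chains, had 9566, 5839, 6364, 6049.9 and 6139 in old CR mice, 6012, 4744, 6065, 5662 and 4503 in old mice and 4843, 6201, 5954, 5648 and 6827 in young mice. Old CR replicate 2 stood far above the other 9 old mice, on either diet, and most of the rest overlapped. The diet difference of Acadvl was 0.32 (SE 0.16, adjusted p = 0.261), and it was 0.19 without that mouse.

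Acadl, the long-chain enzyme, had 12994, 7444, 7934, 7636 and 9261 in old CR mice, 7589.5, 5043, 7718, 11888 and 5379 in old mice and 6382, 6701, 6983, 9238 and 7173 in young mice at its brighter probe set (1448987_at). The old mice spread widely here, and their range took in 4 of the 5 old CR mice and all young mice. Its log2 difference was 0.30 for old CR against old (adjusted p = 0.468) and -0.013 for old against young (adjusted p = 0.986). A second Acadl probe set (1448988_at) was dim, with means of 183, 164 and 160.4 in old CR, old and young mice, and differed by 0.18 for diet and -0.0018 for age. Thus 1 of the 4 dehydrogenases, the one for short chains, passed the test. Whether its difference exceeds those of the other 3 was not tested.

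**Figure D2:**
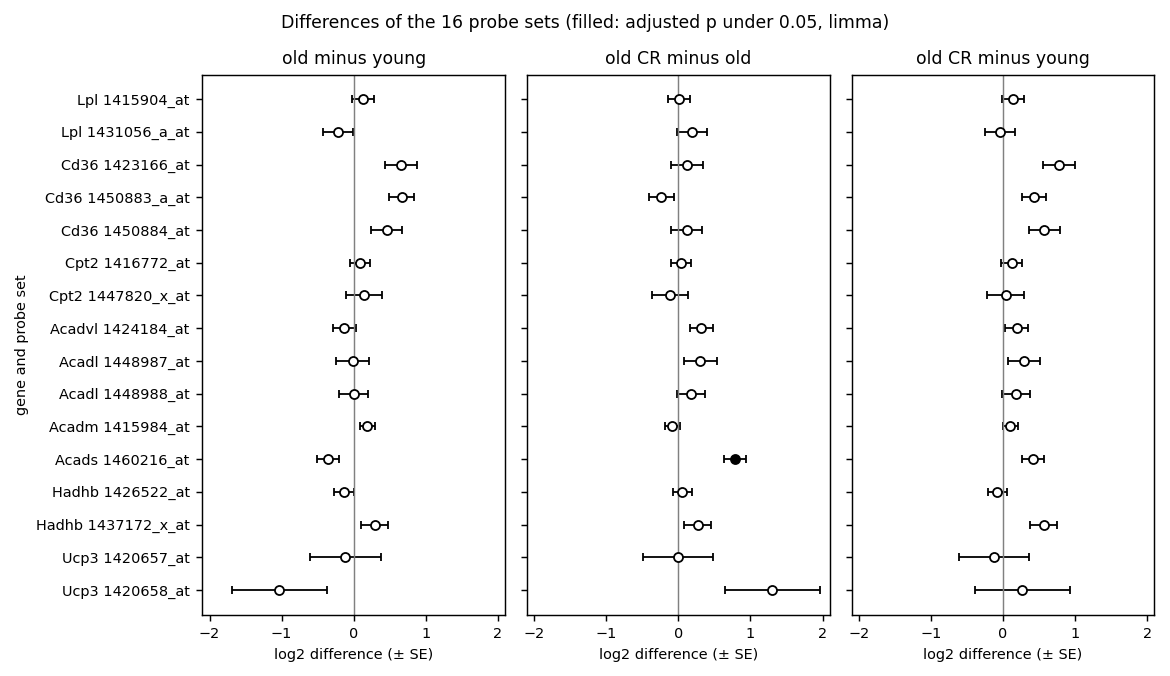
Log2 difference (horizontal axis) of each of the 16 member probe sets (rows) for old CR against old, old against young and old CR against young mice, with bars of 1 SE from limma. Acads at 0.78 for old CR against old is the called difference, and the dimmer Ucp3 probe set has the widest bars, with an SE of 0.66.

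Hadhb carries the thiolase of the trifunctional protein, the last step of a round of long-chain oxidation. Its brighter probe set (1426522_at) had 10633, 7726, 8023, 7454 and 9120.5 in old CR mice, 8509, 6427, 8431, 9226 and 8694 in old mice and 8100.4, 9512, 9587, 9719 and 8199 in young mice. The 3 groups overlapped, with log2 differences of 0.055 for old CR against old (adjusted p = 0.852) and -0.13 for old against young (adjusted p = 0.676). The other Hadhb probe set (1437172_x_at) ranged over 2836 to 5432 in old CR, 2618 to 3644 in old and 1763 to 2842 in young mice, and was 0.56 higher on the log2 scale in old CR than in young mice (SE 0.18, adjusted p = 0.237). Over the 15 arrays the 2 Hadhb probe sets had a Pearson correlation of -0.15, given as a description.

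Hadha, the other subunit, which holds the hydratase and the long-chain dehydrogenase of the complex, is not a member but shares the space upstream of Hadhb. Its intensities were 8805, 5696, 6315, 5656 and 6287 in old CR mice, 3749, 2858, 3627, 3122 and 3336 in old mice and 3693, 4180.5, 3294, 5291 and 4119 in young mice. Every old CR mouse was above every old mouse and every young mouse. The log2 difference for old CR against old was 0.96 (SE 0.16, adjusted p = 0.00791), and the corresponding values of Hadhb were 0.055 and 0.27 at its 2 probe sets. Whether the subunits differ from each other was not tested.

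Mitochondrial oxidation outside the members was read from a list of 21 genes, each by its brightest probe set. Not all of them are steps of fatty acid oxidation: some, such as Ivd and Pccb, act in the breakdown of branched-chain amino acids or propionyl-CoA. Of the 21, 5 were called higher in old CR than in old mice and none lower, against 2.15% higher and 2.67% lower among the brightest probe sets of 12393 genes, and the median difference was 0.30. Beside Hadha, these were Echs1, the enoyl-CoA hydratase for short chains (1.11, adjusted p = 0.0066), Decr1, the dienoyl-CoA reductase needed for unsaturated fatty acids (0.85, adjusted p = 0.0113), Etfb, a subunit of the flavoprotein that takes electrons from the dehydrogenases (0.61, adjusted p = 0.0276), and Pccb, a subunit of propionyl-CoA carboxylase (0.58, adjusted p = 0.0423). Etfb and Pccb fell outside the rule for naming genes and were named after their values were seen. The Etfb call was lost in 9 of 24 other settings and the Pccb call in 15. Acaa2, the thiolase of the matrix, was called at 2 dimmer probe sets (1.02 and 1.92), while its brightest gave 0.73 (adjusted p = 0.0764). No gene of the list was called for old against young or for old CR against young mice, where 0.186% and 0.0807% of all 12393 genes were. With the 3' to 5' ratio in the model none of the 5 was called, and the differences of Hadha, Echs1 and Decr1 were then 0.75, 0.60 and 0.74. The list held 3 calls without old replicate 2 or 5 or without old CR replicate 2, 5, 6 or 7, and 4 or 5 without any other 1 mouse.

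**Figure D3:**
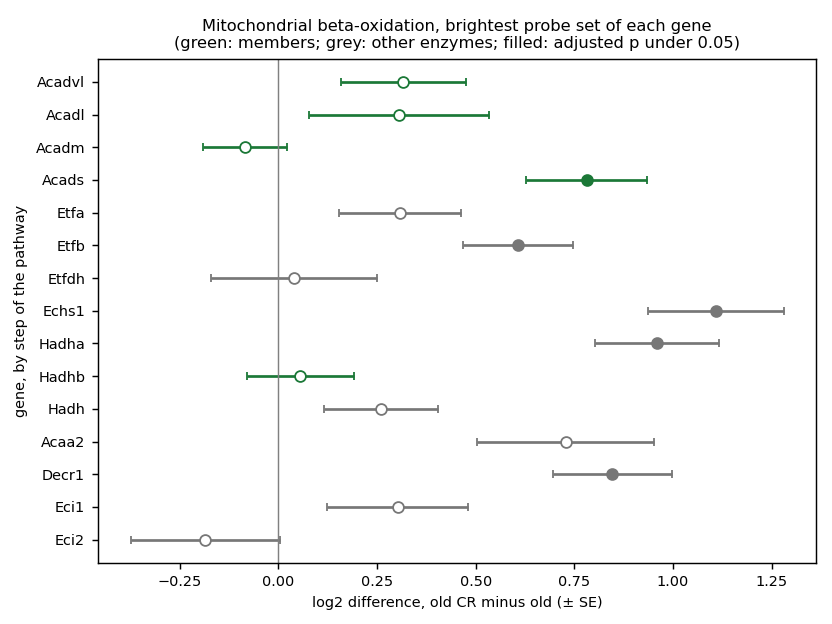
Log2 difference (horizontal axis) for old CR against old mice of the brightest probe set of each enzyme of beta-oxidation (rows, in order of the pathway), with members in green, other enzymes in grey, filled points for calls and bars of 1 SE from limma. Echs1, Hadha, Decr1 and Acads lie at 1.11, 0.96, 0.85 and 0.78, while Hadhb and Acadm lie near 0.

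Old mice were compared with young mice to ask what age changed on the control diet, and here Cd36, the membrane protein that binds long-chain fatty acids for uptake, came nearest to a call. Probe set 1450883_a_at had 2958, 2213, 2124, 1831 and 2159 in old CR mice, 2685, 2373, 2510.4, 2958 and 2630.4 in old mice and 1738, 1106, 1879, 2020.5 and 1709 in young mice. All 5 old mice lay above all 5 young mice, and the old CR mice overlapped with both groups. The means were 2631 ± 218 in old and 1690.4 ± 349.6 in young mice (SD, n = 5 each). Old mice thus stood 1.58-fold above young mice, 0.66 on the log2 scale (SE 0.17, adjusted p = 0.0967). It missed the threshold of 0.05 and passed in 4 of 24 other settings, among them a fit of the 11313 brighter probe sets (adjusted p = 0.0306) and one without young replicate 3 (adjusted p = 0.0419). With the 3' to 5' ratio in the model its adjusted p was 0.769. In that fit no probe set at all was called in this comparison, and 1453 had an unadjusted p under 0.05, none of them a member. The old CR mean was 2257 ± 419, with a difference of -0.24 from old mice (adjusted p = 0.446).

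The brightest Cd36 probe set (1423166_at) had 4729, 2899.9, 2772, 3239 and 2802 in old CR mice, 3789.9, 2118, 2403, 3342 and 3567 in old mice and 1731, 1269, 1979, 2280.5 and 2359 in young mice. Its difference for old against young was again 0.66, with a larger SE (0.22, adjusted p = 0.171), and old replicate 2 lay within the young range. All old CR mice were above all young mice at this probe set, by 0.78 on the log2 scale (adjusted p = 0.182), and old CR and old mice overlapped (0.12, adjusted p = 0.802). The dimmest of the 3 (1450884_at) ranged over 616 to 1211 in old CR, 594 to 1135 in old and 448 to 688 in young mice, with 0.46 for old against young (adjusted p = 0.33). All 3 probe sets had their lowest mean in young mice. The paper, with its own processing, model and threshold, lists all 3 as increased with age. Over the 15 arrays their pairwise Pearson correlations were 0.63 to 0.82.

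Cd36 is also made by adipocytes, endothelial cells and macrophages, so their markers are given beside it. The 7 measured adipocyte genes of 9 summed to intensities of 8780 to 13395 in old CR, 11777 to 18298 in old and 7699 to 14721 in young mice. The median log2 difference of these 7 was 0.21 for old against young and -0.89 for old CR against old. In the latter comparison 4 of the 7 had an unadjusted p under 0.05, against 22.1% among the brightest probe sets of all genes. The 8 endothelial genes summed to 4299.8 to 5031 in old CR, 4107 to 4814 in old and 4312 to 5093 in young mice, and the 8 macrophage genes to 4465 to 6289.8 in old CR, 6325 to 9551 in old and 3695 to 9096 in young mice. None of these 23 genes was called in any comparison. Their part in the Cd36 difference was not tested, and in whole muscle more cells of a type and more RNA per cell cannot be told apart.

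Lpl, the lipase that frees fatty acids from triglyceride-rich lipoproteins, had 15588, 12925, 13356, 13923 and 16612 in old CR mice, 18931, 11889, 15287, 11741 and 15029.5 in old mice and 11308, 11525, 15660.5, 14584 and 13153 in young mice at its brighter probe set (1415904_at). Old mice spanned nearly the whole range of the 15 mice. Its log2 difference was 0.0071 for old CR against old and 0.13 for old against young (adjusted p = 0.987 and 0.737). The other probe set (1431056_a_at) gave 0.18 and -0.22 for the same comparisons, with adjusted p of 0.651 and 0.644.

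Among 12 other measured genes of fatty acid entry and trapping, none was called at its brightest probe set in any comparison. At a dimmer probe set Vldlr, the receptor for very low density lipoprotein, was lower in old CR than in old mice (-1.55, adjusted p = 0.0164), with a brightest value of -0.42 (adjusted p = 0.137). Got2, known as the mitochondrial aspartate aminotransferase and as a fatty acid binding protein of the plasma membrane, was called higher at a dimmer one (0.88, adjusted p = 0.0365), with a brightest value of 0.40 (adjusted p = 0.0964), and that call was lost in 12 of 24 other settings, 9 of them fits without 1 mouse.

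Cpt2, which turns acylcarnitine back into acyl-CoA inside the mitochondrion, had 1723, 1331, 1524, 1789.6 and 1617 in old CR mice, 1481, 1366, 1453, 1786 and 1712 in old mice and 1341, 1845, 1171, 1507 and 1540.0 in young mice at its brighter probe set (1416772_at). The groups overlapped, and the log2 difference was 0.034 for old CR against old and 0.084 for old against young (SE 0.14, adjusted p = 0.917 and 0.821). The dimmer one (1447820_x_at) gave -0.11 and 0.15.

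For the step before it, the muscle form of CPT1, the only probe set (1418328_at) is annotated to Cpt1b, Chkb and Gm44502 together. Because only probe sets with 1 symbol were taken, it was left out of the 16 and of their counts. The paper lists this probe set as carnitine palmitoyltransferase 1b, among transcripts decreased with age by its own processing, model and threshold. It had 3625, 2762, 2738, 2543 and 2554 in old CR mice, 1713, 1428, 1946, 1765 and 1705 in old mice and 2914, 2836, 1798, 3053 and 2445 in young mice. Every old CR mouse was above every old mouse, with a log2 difference of 0.73 (SE 0.16, adjusted p = 0.0246). Old against young mice gave -0.59 (adjusted p = 0.107), and young replicate 3 lay within the range of the old mice. The diet call was lost in 3 of 24 other settings, 1 of them the fit without old replicate 2, where the difference was 0.66 (adjusted p = 0.0604).

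The list of 13 other measured genes of activation and the carnitine shuttle had 2 called lower and none called higher in old CR than in old mice, with a median of 0.03. Over the brightest probe sets of 12393 genes, 2.67% were called lower and 2.15% higher. Acacb, the mitochondrial acetyl-CoA carboxylase that makes the CPT1 inhibitor malonyl-CoA, differed by -0.50 (adjusted p = 0.0423, means of 1738 in old CR and 2461 in old mice). Mlycd, the decarboxylase that removes malonyl-CoA, differed by -0.80 (adjusted p = 0.0349, means of 994 in old CR and 1765 in old mice). Thus the enzymes that make and remove malonyl-CoA both had lower mRNA levels in old CR mice, and each call was lost in many of the 24 other settings, 14 for Acacb and 11 for Mlycd, among them the fits without 1 mouse for 10 mice (Acacb) and 8 mice (Mlycd).

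**Figure D4:**
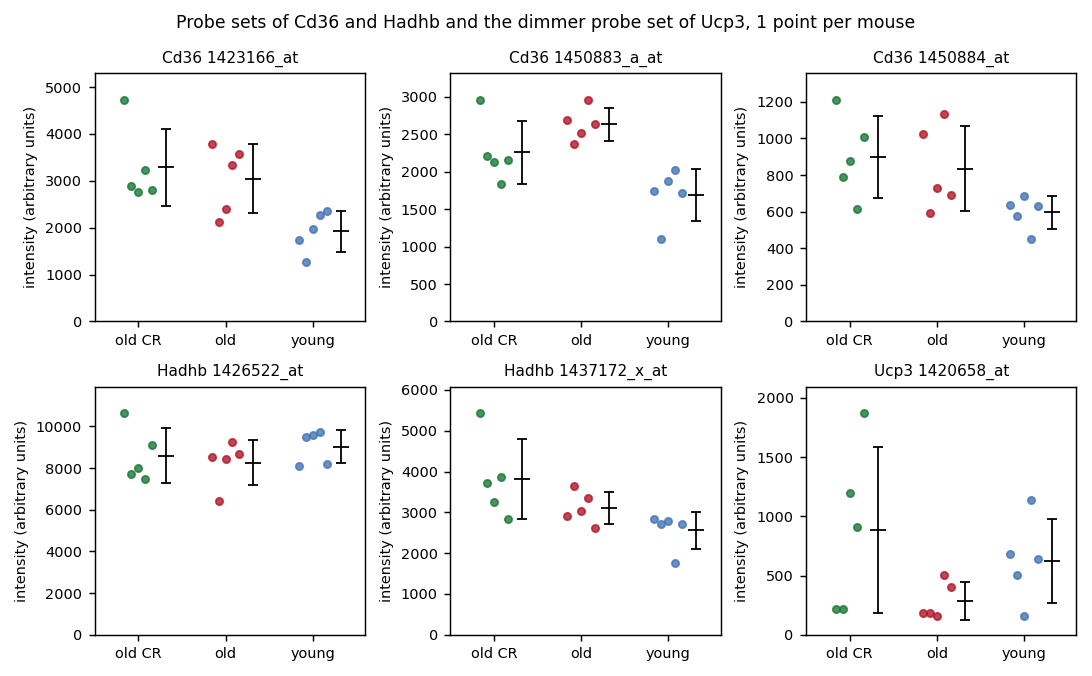
Intensity (vertical axis, from 0) per mouse at the 3 probe sets of Cd36, the 2 of Hadhb and the dimmer one of Ucp3, with bars for the mean and SD of 5 mice and with old CR, old and young mice from left to right. The 3 Cd36 probe sets have their lowest mean in young mice, while the 2 of Hadhb order the groups differently.

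Among the members, Ucp3 showed the widest spread between mice of the same group. Its brighter probe set (1420657_at) had 424, 467, 1387, 1561 and 1882 in old CR mice, 599, 662, 658, 2155 and 1458 in old mice and 702, 705, 1314, 1652 and 1143 in young mice. In old CR mice the highest value was 4.44 times the lowest, in old mice 3.60 times and in young mice 2.36 times. The SD within groups was 0.83 on the log2 scale, against 0.11 for Acadm, and the log2 difference was -0.0046 for old CR against old and -0.12 for old against young (SE 0.49, adjusted p = 0.997 and 0.94). With an SE of this size a moderate difference in either direction was not detectable.

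The dimmer Ucp3 probe set (1420658_at) had 222, 216, 1195, 914 and 1871 in old CR mice, 179.7, 187, 156, 505 and 406 in old mice and 681, 502, 155, 1140.0 and 643 in young mice. Its log2 difference was 1.30 for old CR against old (SE 0.66, adjusted p = 0.269) and -1.03 for old against young (adjusted p = 0.473), and every group overlapped with the others. With the 3' to 5' ratio in the model these differences changed sign and were -1.97 and 1.36. At both probe sets old CR replicates 2 and 3 were the lowest of their group and old replicates 4 and 5 the highest of theirs. Young replicate 3, whose 3' to 5' ratio lay among those of old mice, was second highest of its group at the brighter probe set and lowest at the dimmer one. The Pearson correlation between the 2 over the 15 arrays was 0.66. By its own processing, model and threshold the paper lists the dimmer one as decreased with age.

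Pdk4, the kinase that blocks entry of pyruvate into the citric acid cycle and so spares glucose when fat is burned, followed the brighter Ucp3 probe set from mouse to mouse. Its intensities were 864, 619, 5237, 5226 and 6182 in old CR mice, 1839, 2513, 1781, 10780.1 and 9725 in old mice and 1663, 699.7, 6606, 3239 and 1656 in young mice. Among 7176 genes whose brightest probe set was one of the 11313 with the higher means, Pdk4 had the highest Pearson correlation with Ucp3, 0.87 over the 15 arrays and 0.93 after the group means were removed. It was followed by Myf6, a muscle regulatory factor (0.81), Lcmt2 (0.78), Nop14 (0.78) and Elmod3 (0.77), with Angptl4, an inhibitor of lipoprotein lipase, next at 0.77. At the other end stood Nr1d1, the clock repressor REV-ERB alpha, at -0.83. This comparison with Ucp3 was made after its spread was seen, the arrays share their scaling, and the values are a description with no test.

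**Figure D5:**
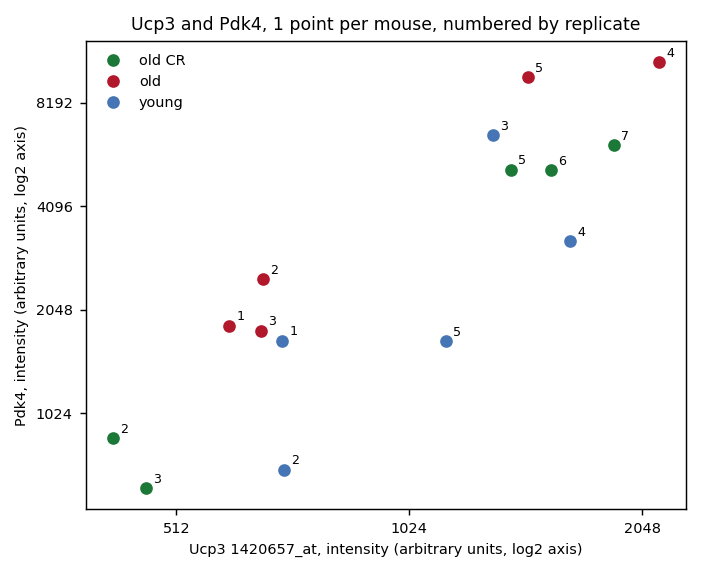
Intensity of Pdk4 (vertical axis, log scale) against that of Ucp3 at probe set 1420657_at (horizontal axis, log scale), with 1 point per mouse, coloured by group. The Pearson correlation of the log2 values is 0.87 over 15 mice, and old CR and old mice lie at both ends of the range.

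The regulators around these genes were read from a list of PPAR regulators and known targets, of which 20 of 23 were measured. In old CR against old mice 1 was called higher and 1 lower, with a median of -0.14. Among the brightest probe sets of 12393 genes 2.15% were called higher and 2.67% lower. Lpin1, a phosphatidate phosphatase that also acts as a coactivator, was lower (-0.64, adjusted p = 0.0256, means of 3678 in old CR and 5694 in old mice). Ppard, the PPAR most abundant in muscle, was called higher (0.55, adjusted p = 0.0463), on a probe set with very low means of 10.4 in old CR and 7.13 in old mice, and its call was lost in 19 of 23 other settings. Ncoa1, a nuclear receptor coactivator, was lower at a dimmer probe set (-0.70, adjusted p = 0.0212), with -0.18 at its brightest. The Lpin1 call was lost without old replicate 3 or 5 or old CR replicate 3, and the Ncoa1 call without old CR replicate 7 or old replicate 2. Both were also lost with the replicate number as a block and with the 3' to 5' ratio in the model. No call was made among 16 genes of peroxisomal oxidation or 4 AMP kinase subunits in any comparison. The 15 genes of mitochondrial content also had none at their brightest probe sets, with a median of 0.12 for old CR against old.

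Slow fibers burn more fat than fast ones, and some of the fiber type markers were higher in old CR mice. Of 8 slow fiber genes 2 were called higher in old CR than in old mice, Tnnc1, slow troponin C (1.45, adjusted p = 0.027), and Tpm3, slow tropomyosin (1.42, adjusted p = 0.0486), with a median of 0.77. Among the brightest probe sets of all genes 2.15% were called higher. The 8 summed to intensities of 69487 to 99184 in old CR, 29773 to 63782 in old and 27053 to 72943 in young mice, so old CR and old mice did not overlap. The summed macrophage genes given above did not overlap between these groups either. For single genes, by their brightest probe sets, 9.39% did not overlap in this comparison. Of 10 fast fiber genes 1, Myh1, the IIx myosin, was called higher (0.52, adjusted p = 0.0297), and the 10 summed to 229806 to 347717 in old CR, 215360 to 296422 in old and 270499 to 311244 in young mice. These calls were lost when 1 mouse was left out, for 5 mice in the case of Tnnc1, 10 for Tpm3 and 7 for Myh1. A dimmer Tpm3 probe set (1427567_a_at, 1.14) was also called higher and kept its call without any 1 mouse. A dimmer Myh1 probe set (1427520_a_at, 0.62) was called too, and its call was lost for 5 mice. All of these calls were lost with the replicate number as a block and with the 3' to 5' ratio in the model. The part of fiber type in the Acads difference was not tested.

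The members were also set against each other across mice. Among the 36 pairs of brightest probe sets the median Pearson correlation over 15 arrays was 0.29, from -0.27 to 0.74, and 32 pairs were above 0. Old CR replicate 2 was the highest of its group at 11 of the 16 probe sets, and old replicate 2 the lowest of its group at 9. The genes whose profile was most like the mean of the members, outside the members, were Eci1, the enoyl-CoA isomerase of unsaturated fatty acid oxidation (0.87), Gatd3a, a mitochondrial protein (0.86), Nudt8, a mitochondrial hydrolase (0.83), Aldh9a1, an aldehyde dehydrogenase that takes part in carnitine synthesis (0.82), and Ephx2, the soluble epoxide hydrolase (0.82). These are Pearson correlations over the 15 arrays among 7176 genes and carry no test.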

How the data were processed

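Labelled cRNA, made from poly(A)+ RNA of the gastrocnemius per the labels, was hybridized to MOE430A arrays, 1 per mouse. The authors deposited linear intensities, 1 value for each probe set on each array, the average of repeated scans, scaled to a 2% trimmed mean of 500.0 on each array. The submitters' processing notes name MAS5 and RMA, whose versions are not given in the sources used here, and the deposited values are not on the log scale that RMA gives. All 15 columns were matched to samples by column name, and groups were taken from the titles in the labels.

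Intensities were converted to log2 with no pseudocount and were not normalized again. Control probe sets (64) were left out. For the remaining 22626, 1 model of the 3 groups was fitted in limma 3.58.1 (R 4.3.3) (eBayes without a variance trend, 2.17 prior degrees of freedom), and p-values were adjusted by Benjamini and Hochberg over all of them. The model was first checked on simulated intensities with known fold changes. Tables and figures were made in Python 3.11.15 (pandas 2.3.3, NumPy 2.4.6, Matplotlib 3.10.9). Precision is set by the number of arrays.

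The annotation listed 1 symbol for 20380 probe sets, several symbols for 691 and no symbol for 1555, and only those with 1 symbol were used to name genes. The rule for naming genes took all members and up to 4 genes with a call from each pathway list, by smallest adjusted p. It also took the 5 genes most like the mean standardized profile of the members. Etfb, Pccb and the genes set beside Ucp3 and Acads by correlation were named after values were seen. Angptl4 and Fabp3 (-0.22 with Ucp3) were looked up by name. The brightest probe set of a gene is the one with the highest mean log2 value. The members and lists were chosen with earlier results of these data known. Alternatives were the 11313 brighter probe sets, median centering of each array, quantile normalization, 16 added before log2, a model of the compared groups alone, a variance trend with robust eBayes, array weights, a block for the replicate number, the 3' to 5' ratio of the Gapdh and Actb controls as a covariate, a threshold of 0.10, the brightest probe set per gene, and leaving out each mouse in turn.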

Additional observations from a re-analysis of the deposited data

Results flagged for a closer look

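Among the 48 groups of 5 mice (16 probe sets in 3 groups), 6 held a mouse whose gap to the nearest of the others, divided by the range of the group, was above Dixon's critical value of 0.71 for 5 samples. Chance gives about 1 in 20. Old CR replicate 2 and young replicate 4 were each among these at 2 probe sets. Old CR replicate 2 stood above its group at Cd36 1423166_at, with 4729 against 2772 to 3239 in the other old CR mice, and at Acadvl, with 9566 against 5839 to 6364. Without it the log2 differences for old CR against old mice were -0.022 for this Cd36 probe set and 0.19 for Acadvl. Among old mice, replicate 3 was low at Cpt2 1447820_x_at, with 169 against 270 to 295, and replicate 2 was low at Hadhb 1426522_at, with 6427 against 8431 to 9226. Young replicate 4 was high at Acadl 1448987_at, with 9238 against 6382 to 7173, and low at Hadhb 1437172_x_at, with 1763 against 2703 to 2842.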

How the results depend on the processing

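Of the 48 log2 differences of the 16 probe sets, 30 kept their sign in every alternative, and 18 changed it in at least 1. The causes were not tested. No member was called between old and young mice, but 1 (Cd36 1450883_a_at) was with the 11313 brighter probe sets, a variance trend with robust eBayes, array weights or a threshold of 0.10, and the count ran from 0 to 1 without 1 mouse (1 without young replicate 3). Between old CR and old mice 1 was called without any 1 mouse, and 0 with the replicate number as a block or with the 3' to 5' ratio in the model (the covariate below). Between old CR and young mice the count was 0 to 0. The replicate numbers did not pair mice: the 11 same-numbered pairs correlated at -0.28 to 0.09, and none of 13 mice was closest to its own number. With the replicate block Acads differed by 0.70 (adjusted p = 0.233), and 4 of all probe sets were called for old CR against old and 0 for old against young (3430 and 3068 at an unadjusted p under 0.05).

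Over the whole table the calls for old CR against old numbered 1102, 1778 among the brighter ones and 0 with the covariate (1461 at an unadjusted p under 0.05), and for old against young 60, 572 and 0 (1453). For old against young they were also 418 with the trend, 770 with array weights, 108 with 16 added and 6 with only the groups compared. For old CR against young they numbered 20, 204 among the brighter ones, 151 with the trend, 41 with 16 added, 12 with median centering, 6 with only the groups compared, 8 with the covariate and 0 with the block (1932 at an unadjusted p under 0.05). The trend gave 1666 for old CR against old. Without 1 mouse these counts ran from 462 to 1657 for old CR against old, 0 to 1067 for old against young (1067 without young replicate 3) and 7 to 34 for old CR against young.

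Signs turned as follows. With the covariate, old against young gave -0.11 for Lpl 1415904_at, -0.25 for Cpt2 1447820_x_at, 0.092 for Acadl 1448988_at, and 0.52 and 1.36 for the brighter and dimmer Ucp3 probe sets. Old CR against old gave -0.27 for Cpt2 1416772_at, 0.43 for Cpt2 1447820_x_at, 0.041 for Acadm and -1.97 for the dimmer Ucp3, and old CR against young gave 0.011 for Lpl 1431056_a_at and -0.61 for the dimmer Ucp3. With arrays centered on their median, old CR against old gave -0.081 for Lpl 1415904_at, -0.054 for Cpt2 1416772_at and -0.033 for Hadhb 1426522_at, and old against young gave 0.077 and 0.088 for Acadl. Quantile normalization gave -0.12, -0.069 and 0.035 for Lpl 1415904_at, Hadhb 1426522_at and Ucp3 1420657_at in old CR against old, and 0.028 and 0.10 for Acadl in old against young. Array weights gave -0.0055 for Lpl 1415904_at and 0.14 for Ucp3 1420657_at in old CR against old, and 16 added gave 0.0011 for Acadl 1448988_at in old against young. The block gave -0.037, -0.023 and 0.099 for Lpl 1415904_at, Cpt2 1416772_at and Cpt2 1447820_x_at in old CR against old, and 0.012 and -0.11 for Lpl 1431056_a_at and Ucp3 1420658_at in old CR against young.

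Without 1 mouse, old against young ran from -0.20 to 0.11 (Acadl 1448987_at), -0.11 to 0.14 (Acadl 1448988_at) and -0.41 to 0.055 (Ucp3 1420657_at). Old CR against old ran from -0.022 to 0.21 (Cd36 1423166_at), -0.012 to 0.098 (Cpt2 1416772_at), -0.26 to 0.0021 (Cpt2 1447820_x_at), -0.032 to 0.10 (Hadhb 1426522_at), -0.065 to 0.11 (Lpl 1415904_at) and -0.25 to 0.29 (Ucp3 1420657_at). Old CR against young ran from -0.091 to 0.23 (Cpt2 1447820_x_at), -0.13 to 0.063 (Lpl 1431056_a_at), -0.36 to 0.17 (Ucp3 1420657_at) and -0.17 to 0.65 (Ucp3 1420658_at).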

Other observations

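Genes of the citric acid cycle showed how far probe sets of 1 gene could part. Cs, citrate synthase, had means of 6153 in old CR, 2881 in old and 5950.3 in young mice at probe set 1422577_at, with log2 differences of 1.09 for old CR against old (adjusted p = 0.0193) and -0.97 for old against young (adjusted p = 0.0769). At its brightest probe set the means were 8984 in old CR, 9385 in old and 9397 in young mice, with -0.062 and -0.0024 for the same comparisons. With the 3' to 5' ratio in the model the diet difference at 1422577_at was -0.028. Sdha, a subunit of succinate dehydrogenase, was called at a dimmer probe set (0.56, adjusted p = 0.0322) and gave 0.18 at its brightest.

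The genes most like Acads over the 15 arrays, looked up after its call was seen, were Ndufa9, a subunit of complex I, S100a1, a calcium-binding protein of striated muscle, and Ghitm, a protein of the inner mitochondrial membrane, each with a Pearson correlation of 0.89. After the group means were removed their correlations were 0.78, 0.58 and 0.65. Igfbp5, an insulin-like growth factor binding protein, was the most opposite at -0.92.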
